A study of Mus musculus with 8 samples.

Results

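The genes described here encode the nuclear part of the mitochondrial respiratory chain: the subunits of complexes I to V, cytochrome c and the assembly factors whose names carry the same prefixes. They were chosen by symbol and not by any measured value. Every gene was taken whose only platform symbol starts with Nduf, with Sdh followed by a, b, c or d, with Uqcr, with Cox followed by a number from 4 to 8, or with Atp5, together with Cyc1 and Cycs. This gave 96 of the 18193 genes on the array: 34 of complex I, 4 of complex II, 9 of complex III with Cyc1, 18 of complex IV with Ndufa4 and its paralogue Ndufa4l2, 17 of complex V, cytochrome c itself (Cycs), the supercomplex factor Cox7a2l and 12 assembly factors. None of the 13 chain genes of the mitochondrial genome had a probe set that named it alone, so these were not analysed here.

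Single-channel oligonucleotide arrays were run on small intestine from BALB/c mice, 6 to 9 days of age, in 3 groups. The groups are ICC-DMP cells (3 arrays), ICC-MY cells (3 arrays) and tunica muscularis (2 arrays), the muscle coat of the gut wall. The labels give abbreviations only; ICC usually means interstitial cells of Cajal, which pace gut muscle and relay nerve signals to it, MY the myenteric plexus and DMP the deep muscular plexus. No genotype, transgene or treatment is named for any group, and the sources used here do not give the way the cells were isolated or the number of animals behind a sample. The titles call the arrays biological replicates without saying that they came from separate animals, so p-values measure the spread between these arrays, which may be technical. About 50 ng of total RNA per sample went through 2 rounds of amplification, started from an oligo(dT) primer.

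In the inner mitochondrial membrane, complex I takes electrons from NADH and complex II takes them from succinate; both pass them through coenzyme Q to complex III, and cytochrome c carries them on to complex IV, which reduces oxygen. Complexes I, III and IV pump protons, and complex V, the ATP synthase, uses the gradient to make ATP. Several subunits of complex IV come in alternative isoforms, among them forms of subunits 6a, 7a and 8 best known from heart, skeletal muscle and, for 7a and 8, brown fat. Interstitial cells of Cajal are known for abundant mitochondria in electron micrographs.

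Values are log2 expression values, so a difference of 1 is a doubling, and levels of different genes are not compared because each probe set has its own brightness. ICC markers Kit and Ano1 were well above the tissue in both ICC classes (Kit by 3.27 in ICC-DMP and 3.92 in ICC-MY). Of 5 measured ICC markers, 3 were higher than tissue and 0 lower in each class in the test described below. Between the classes 1 of the 5 was higher and 1 lower in ICC-DMP. All 8 listed enteric neuron markers and all 6 mesothelial markers were lower in both classes than in tissue. Of 6 endothelial markers, 3 were lower in ICC-DMP and 1 in ICC-MY than in tissue, and 2 were lower in ICC-DMP than in ICC-MY. The mean level of the endothelial list was 3.69 to 3.93 on the ICC-DMP arrays, 4.26 to 5.23 on the ICC-MY arrays and 5.12 to 5.42 on the tissue arrays. Of 8 smooth muscle markers, 4 were lower in ICC-DMP and 7 in ICC-MY, and the mean level of that list was 9.99 to 10.3 on the ICC-DMP arrays, 7.24 to 8.06 on the ICC-MY arrays and 10.7 to 11.6 on the tissue arrays. On ICC-MY replicate 1 and on tunica muscularis replicate 1 the values spanned less than on the other 6 arrays: 99 percent of values lay under 10.5 and 10.7 there and under 11.3 to 11.8 elsewhere. This bears on respiratory chain genes in particular, since 52 of the 96 had a mean of 10 or more. The standard errors of the 96 had a median of 0.40 in the comparisons with tissue, against 0.22 over all genes.

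Few of the 96 genes passed the test one at a time, and 6 of the 7 that passed were higher in ICC-MY than in ICC-DMP. A gene was said to pass at a limma p-value under 0.05 after Benjamini-Hochberg adjustment over all 18193 genes. In ICC-MY against tissue, 4 of the 96 rose (Cox8b, Cox7a1, Cox6b2 and Ndufaf4), where 4.05% of all genes did, a share close to that of the 96. In the same comparison 1 fell (Sdhaf3), where 9.78% of all genes did. Between the ICC classes, 6 were lower in ICC-DMP than in ICC-MY (Cox7a1, Cox8b, Atp5g1, Ndufaf4, Cox6b2 and Uqcr10), where 3.3% of all genes were, and 0 were higher, where 5.36% of all genes were. In ICC-DMP against tissue, 0 rose and 0 fell, where 3.72% and 7.32% of all genes did; at an unadjusted p under 0.05 the limma counts there were 1 and 5, where 7.98% and 13.7% of all genes reached it, so both counts lay below the share of all genes. No member was higher in ICC-DMP than in ICC-MY at an unadjusted p under 0.05 either, where 10.8% of all genes were. Without a test, the arrays of ICC-DMP and tissue did not overlap for 3 genes higher in ICC-DMP and 18 lower, where 15.5% and 23.1% of all genes had such gaps. For ICC-MY against tissue this held for 7 higher and 2 lower, where 13.4% and 20.7% of all genes did. For ICC-DMP against ICC-MY it held for 0 higher and 8 lower, where 13.9% and 11.7% of all genes did. These are bulk samples, in which more cells with a transcript and more of it per cell cannot be told apart.

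The medians of the whole set were small. Over the 96 genes the median log2 difference was -0.10 in ICC-DMP against tissue, where the median of all genes was -0.04. It was 0.20 in ICC-MY against tissue, where that of all genes was -0.02. Between the ICC classes it was -0.32, where that of all genes was -0.02. In that comparison 83 of the 96 had a difference below 0, where 9651 of all 18193 genes did. The 735 other genes with a mean of 10 or more had a median of 0.30 in that comparison and 542 of them were above 0. These comparisons share arrays. The sign of the first median turned to 0.14 without tunica muscularis replicate 2, and that of the second to -0.07 without ICC-MY replicate 2 and to -0.18 without tunica muscularis replicate 1. The third stayed below 0 but went to -0.09 without ICC-MY replicate 2, with 59 of 96 genes below 0, to -0.22 without ICC-MY replicate 3 and to -0.69 without ICC-MY replicate 1.

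**Figure D1:**
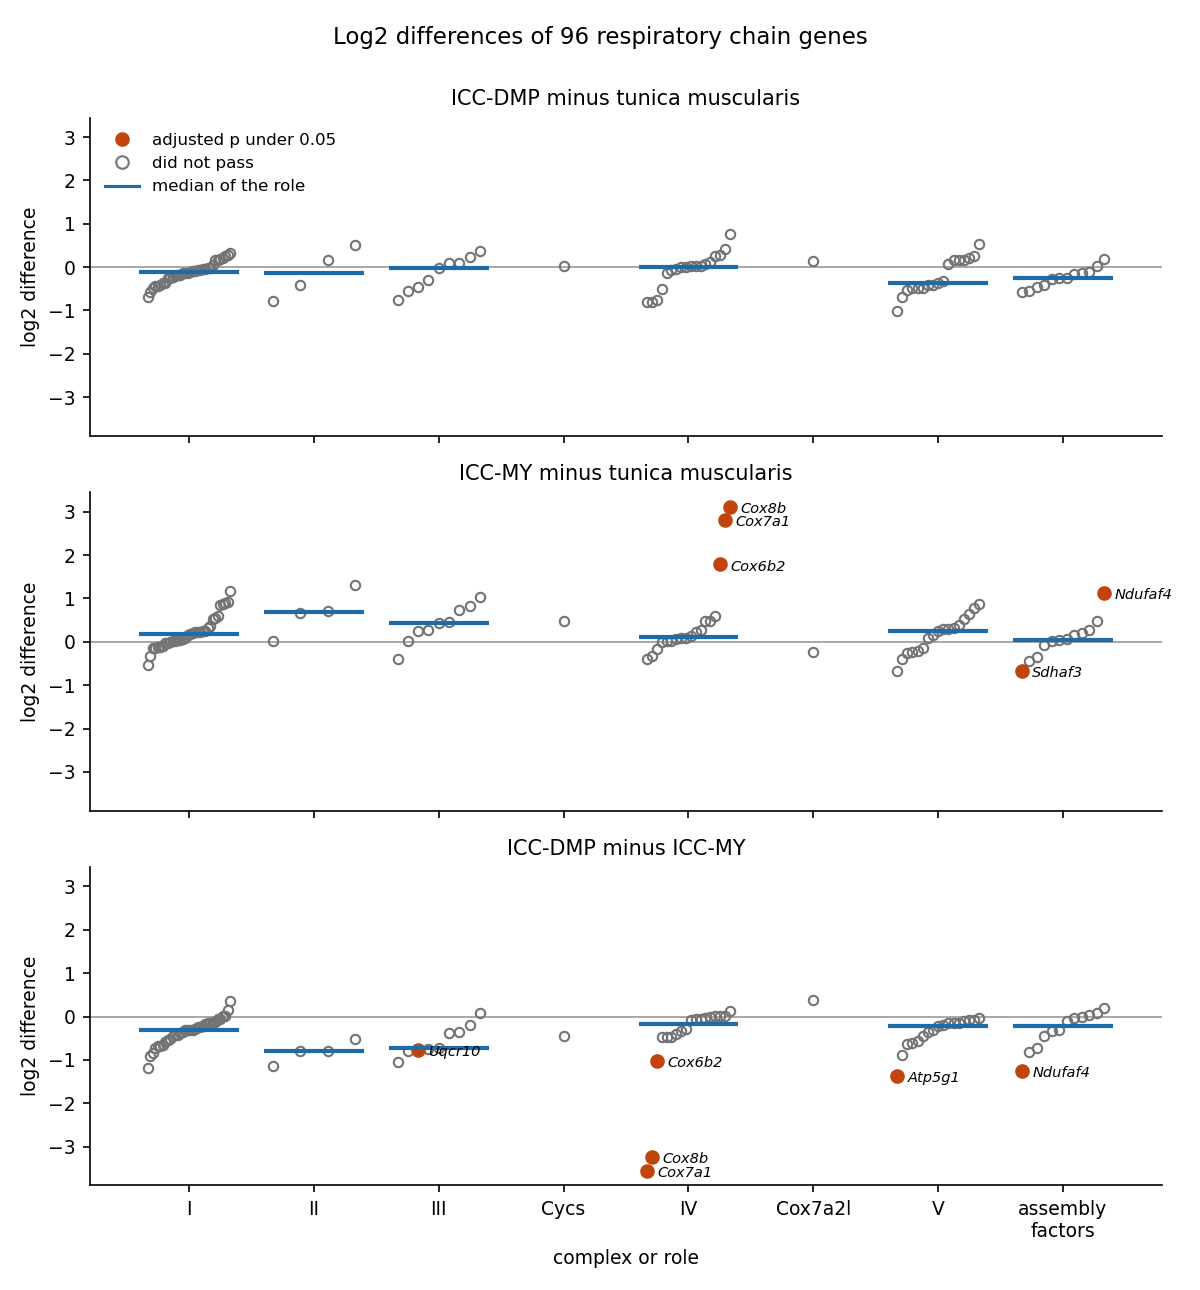
Log2 difference of each of the 96 genes (points, ordered by value within a role) in the 3 comparisons, by complex or role on the x axis; filled points passed at an adjusted p under 0.05 and lines are medians. Cox8b, Cox7a1 and Cox6b2 stand above the other genes of complex IV in ICC-MY against tissue, and all 17 complex V genes lie below 0 in ICC-DMP minus ICC-MY.

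Complex I, the entry point for electrons from NADH, had 34 genes, of which 0 passed in any of the 3 comparisons; at an unadjusted p under 0.05, 2 lay above tissue in ICC-MY and 1 was lower in ICC-DMP than in ICC-MY, where 8.28% and 7.66% of all genes were. The median difference was -0.12 in ICC-DMP against tissue, 0.18 in ICC-MY against tissue and -0.30 between the classes, and 30 of the 34 had a difference below 0 in the last. Ndufs1, the largest iron-sulfur subunit, read 9.50, 9.48 and 8.76 in ICC-DMP, 9.77, 11.02 and 10.49 in ICC-MY and 8.91 and 9.60 in tissue. The 3 ICC-MY arrays were all above the other 5. Its difference was 1.17 ± 0.40 (SE) in ICC-MY against tissue (adjusted p = 0.0981) and -1.18 ± 0.35 between the classes (adjusted p = 0.0906). With the replicate number as a block it passed in both (adjusted p = 0.018 and 0.0156). Ndufa1 and Ndufa13, a pair of small accessory subunits and the brightest probe sets of the complex, differed by at most 0.36 in any comparison, with standard errors of 0.40 to 0.52.

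Complex II, succinate dehydrogenase, links the tricarboxylic acid cycle to the chain. All 4 of its genes were below 0 in ICC-DMP minus ICC-MY, where 9651 of all 18193 genes were, with a median of -0.80. In no comparison did any of the 4 pass. At an unadjusted limma p under 0.05, 1 was higher in ICC-MY than in tissue, where 8.28% of all genes were. By the same measure 1 was lower in ICC-DMP than in ICC-MY, where 7.66% of all genes were. Sdha, the flavoprotein that oxidises succinate, read 10.53, 10.83 and 10.43 in ICC-DMP, 10.54, 12.06 and 11.61 in ICC-MY and 9.45 and 10.73 in tissue. ICC-MY replicate 1 lay among the ICC-DMP values and the other two ICC-MY arrays above every other array. The difference from tissue was 1.31 ± 0.48 in ICC-MY (adjusted p = 0.128; 0.0122 with the replicate block). Sdhb, the iron-sulfur subunit, was lower on all ICC-DMP arrays than on the tissue arrays (10.01, 10.25 and 9.45 against 10.48 and 10.88), by 0.78 ± 0.38 (adjusted p = 0.295), and differed by 0.02 ± 0.38 between ICC-MY and tissue. The membrane anchor genes Sdhc and Sdhd were 0.66 ± 0.38 and 0.72 ± 0.57 above tissue in ICC-MY and did not pass; Sdhd passed with the replicate block (adjusted p = 0.0436 there and 0.0129 between the classes).

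Complex III hands electrons from coenzyme Q to cytochrome c. Of its 9 genes 1 passed, as lower in ICC-DMP than in ICC-MY, where 3.3% of all genes were. Uqcr10, a small subunit of the complex, read 8.19, 7.85 and 8.09 in ICC-DMP, 8.43, 9.08 and 8.90 in ICC-MY and 8.37 and 8.30 in tissue. Its groups did not overlap: every ICC-DMP array was below tissue and every ICC-MY array above it. It was lower in ICC-DMP than in ICC-MY by 0.76 ± 0.19 (1.7-fold, adjusted p = 0.045). That call is close to the threshold and held in 7 of 19 alternative analyses. Uqcrc1, a core subunit, read 8.63, 10.29 and 10.29 in ICC-MY against 8.54 to 8.80 in the other 5 arrays, a difference of 1.04 ± 0.46 from tissue (adjusted p = 0.208). Its ICC-MY replicate 1 lay among the values of the other groups. Uqcrb and Uqcrc2, the brightest probe sets of the complex, differed by at most 0.43 and did not pass. Cyc1, the haem-bearing cytochrome c1, was 0.74 ± 0.47 above tissue in ICC-MY (adjusted p = 0.42), and the carrier Cycs 0.48 ± 0.49 (adjusted p = 0.671).

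Complex IV, cytochrome c oxidase, held the largest differences of the 96 genes, and they lay in minor isoforms. Cox8b, the muscle and brown fat form of subunit 8, read 4.25, 3.91 and 3.95 in ICC-DMP, 6.92, 7.63 and 7.31 in ICC-MY and 4.29 and 4.05 in tissue. It rose 8.63-fold in ICC-MY against tissue (log2 3.11 ± 0.23, adjusted p = 5.69e-05) and was lower in ICC-DMP than in ICC-MY by 3.24 ± 0.20 (adjusted p = 5.27e-05). ICC-DMP and tissue arrays overlapped (-0.13 ± 0.23, adjusted p = 0.851). The files used here carry no detection calls, and the means of Cox8b and Cox7a1 in ICC-DMP and tissue and of Cox6b2 in tissue were below 6, the limit used here for dim genes. These dim levels were not shown to be above background, so the folds against them are differences of array values and may not give the true ratio. Cox7a1, the muscle and brown fat form of subunit 7a, read 5.29, 5.35 and 5.07 in ICC-DMP, 8.06, 9.13 and 9.20 in ICC-MY and 6.11 and 5.88 in tissue. It rose 6.99-fold in ICC-MY against tissue (adjusted p = 0.000711) and was 11.8-fold lower in ICC-DMP than in ICC-MY (log2 -3.56 ± 0.29, adjusted p = 0.000165). Every ICC-DMP array was below both tissue arrays, by 0.76 ± 0.33 (adjusted p = 0.229). Both genes passed in all 19 alternatives in each of the comparisons with ICC-MY, with differences from tissue of 2.94 to 3.41 for Cox8b and 2.60 to 3.32 for Cox7a1.

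Cox6b2, best known as the testis form of subunit 6b, read 6.15, 6.09 and 6.22 in ICC-DMP, 6.66, 7.44 and 7.44 in ICC-MY and 5.39 on both tissue arrays. The order of the groups was tissue, ICC-DMP, ICC-MY with no overlap. It rose 3.45-fold in ICC-MY against tissue (log2 1.79 ± 0.24, adjusted p = 0.00157) and was lower in ICC-DMP than in ICC-MY by 1.02 ± 0.22 (adjusted p = 0.0218). In ICC-DMP it was 0.76 ± 0.24 above tissue and did not pass (adjusted p = 0.094). The call between the classes was lost without any 1 of the ICC-DMP arrays and without ICC-MY replicate 2 or 3; the call against tissue held in all 19 alternatives.

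**Figure D2:**
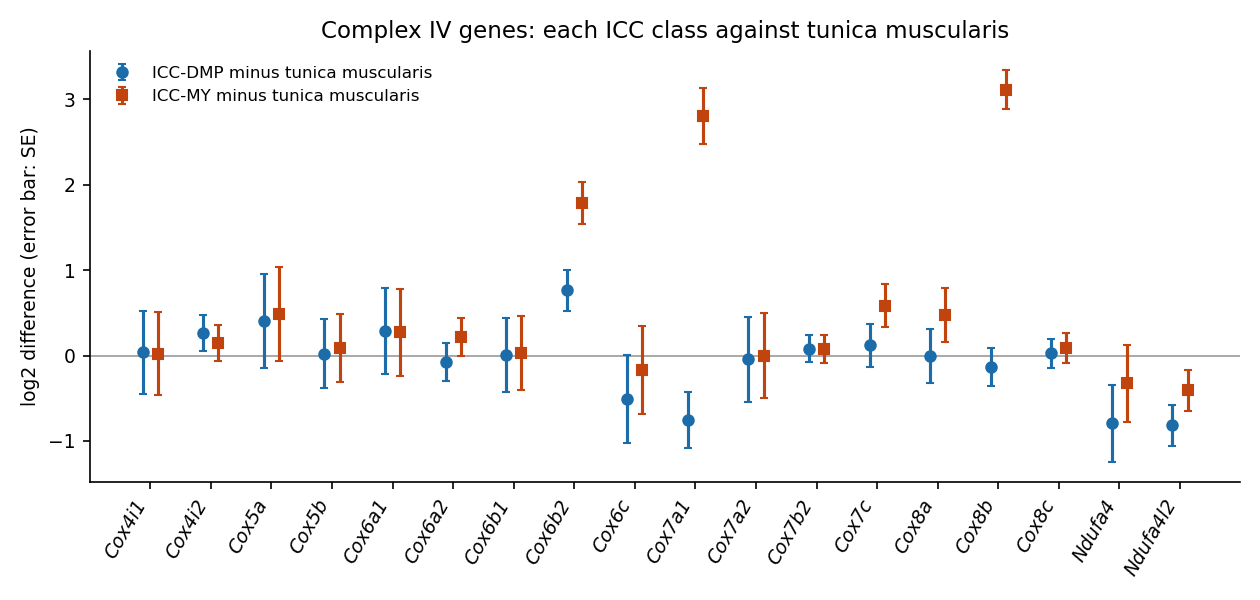
Log2 difference from tunica muscularis (y axis, error bars are standard errors) of the 18 complex IV genes on the x axis, for ICC-DMP (circles) and ICC-MY (squares). Cox7a1, Cox8b and Cox6b2 are the genes whose ICC-MY points pass the test, and for each the paired widely expressed isoform (Cox7a2, Cox8a, Cox6b1) differs from tissue by at most 0.47 in both classes.

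The widely expressed partners of these isoforms did not pass on the deposited scale. After quantile normalization, described below, Cox7a2 and Cox6b1 passed as lower in ICC-DMP than in ICC-MY. Their log2 differences were -0.43 ± 0.12 and -0.41 ± 0.11 (limma adjusted p = 0.043 and 0.0399). The values that follow are on the deposited scale. Cox7a2 differed from tissue by less than 0.01 in ICC-MY, with a standard error of 0.50. Cox8a was 0.47 ± 0.32 above tissue in ICC-MY (adjusted p = 0.455) and Cox6b1 0.03 ± 0.43. The muscle form of subunit 6a, Cox6a2, did not follow Cox7a1 and Cox8b: it read 4.98 to 5.34 in ICC-DMP, 5.22 to 5.63 in ICC-MY and 4.96 to 5.53 in tissue, with overlapping groups and a difference from tissue of 0.22 ± 0.22 in ICC-MY (adjusted p = 0.668). Cox4i2, the form of subunit 4 known from lung and low oxygen, read 3.23 to 3.97 on all 8 arrays, and Cox4i1, Cox5a, Cox5b, Cox6a1, Cox6c and Cox7c had differences from tissue between -0.51 and 0.59, none of which passed. Cox7b2 and Cox8c differed by at most 0.09 in any comparison. Ndufa4, now assigned to complex IV, was 0.79 ± 0.45 below tissue in ICC-DMP (limma adjusted p = 0.398). Its paralogue Ndufa4l2, known as a hypoxia-induced gene, was 0.82 ± 0.24 below tissue in ICC-DMP (limma adjusted p = 0.071, and 0.0141 with the replicate block). The arrays of Ndufa4l2 in these 2 groups did not overlap. Its means of 4.07 in ICC-DMP, 4.48 in ICC-MY and 4.88 in tissue were all below the limit for dim genes and were not shown to be above background.

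On the deposited scale Cox7a1 and Cox8b passed while Cox7a2 and Cox8a did not. The 250 bases before the start of each gene are therefore shown for these isoform pairs, from the RefSeq promoter table on GRCm38.p6. Cox7a1 lies at chr7:30183921-30184170 on the plus strand, Cox8b at chr7:140900447-140900696 on the minus strand, Cox7a2 at chr9:79759854-79760103 on the minus strand and Cox8a at chr19:7217617-7217866 on the minus strand. Capitals mark the part of a searched motif that falls in the window.
Cox7a1: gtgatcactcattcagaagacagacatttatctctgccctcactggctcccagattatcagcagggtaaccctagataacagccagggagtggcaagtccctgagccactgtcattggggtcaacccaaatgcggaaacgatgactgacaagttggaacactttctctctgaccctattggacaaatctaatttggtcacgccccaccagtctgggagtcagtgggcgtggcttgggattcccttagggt
Cox7a2: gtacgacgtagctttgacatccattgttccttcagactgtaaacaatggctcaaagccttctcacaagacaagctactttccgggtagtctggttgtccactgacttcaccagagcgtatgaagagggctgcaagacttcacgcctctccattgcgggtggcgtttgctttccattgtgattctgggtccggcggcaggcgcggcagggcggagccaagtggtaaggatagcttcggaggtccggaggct
Cox8b: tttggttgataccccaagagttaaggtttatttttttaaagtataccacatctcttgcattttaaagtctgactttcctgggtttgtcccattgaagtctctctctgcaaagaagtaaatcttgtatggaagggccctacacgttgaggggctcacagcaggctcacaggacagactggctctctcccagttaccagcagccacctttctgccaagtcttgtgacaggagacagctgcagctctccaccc
Cox8a: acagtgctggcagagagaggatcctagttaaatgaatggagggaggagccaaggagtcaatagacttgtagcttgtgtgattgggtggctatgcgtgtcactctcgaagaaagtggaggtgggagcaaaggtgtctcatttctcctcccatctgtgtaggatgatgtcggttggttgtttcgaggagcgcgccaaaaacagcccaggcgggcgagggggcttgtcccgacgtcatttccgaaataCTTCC
The windows of the muscle forms hold fewer CpG pairs, 4 for Cox7a1 and 1 for Cox8b, than those of the partners, 14 for Cox7a2 and 11 for Cox8a; the median was 15.0 over the 79 of 96 genes with a promoter in the table, 13 over all 14369 measured genes with one and 6.0 over all 32851 promoters. The 6 motifs were searched on both strands from 250 bases before the start to 50 after it. Shares are given for the 79 genes, then for the 14369 measured genes, both counting a gene with a match in any of its promoters, and then for all promoters. GCGC followed after 2 bases of any kind by GCGC, an NRF1-type motif, was in 26.6%, 11.5% and 6.23%; GCATGCGC, which can overlap it, was in 15.2%, 4.7% and 2.71%. CCGGAAG, an ETS and GABP-type motif, was in 27.8%, 15.0% and 8.86%. AAGATGGC (YY1-type) was in 12.7%, 4.09% and 2.75%, and AAGGTCA (ERR-type) in 10.1%, 4.61% and 4.72%. TATAAA was in 11.4%, 11.5% and 13.6%. The Cox7a1 and Cox7a2 windows held none of the 6. Cox8a held CCGGAAG on the strand opposite to the gene across its start, of which the capitals show the part before the start, and again 33 to 39 bases after it, and Cox8b held TATAAA 5 to 10 bases after the start, outside the bases shown. These are matches of letters, and no binding was measured.

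Complex V, the ATP synthase, had all 17 genes below 0 in ICC-DMP minus ICC-MY, where 9651 of all 18193 genes were. The median of the 17 was -0.23, and 1 passed as lower, where 3.3% of all genes did. Atp5g1 is 1 of 3 genes (with Atp5g2 and Atp5g3) that encode the same mature c subunit of the rotor ring. It read 8.19, 8.09 and 7.84 in ICC-DMP, 8.66, 9.92 and 9.64 in ICC-MY and 8.52 and 8.54 in tissue. Every ICC-DMP array was below tissue and every ICC-MY array above it. It was 2.58-fold lower in ICC-DMP than in ICC-MY (log2 -1.37 ± 0.30, adjusted p = 0.0248), while the separate differences from tissue, -0.49 ± 0.33 and 0.88 ± 0.33, did not pass (adjusted p = 0.511 and 0.14). The call between the classes held in 14 of 19 alternatives and was lost without any 1 of the ICC-DMP arrays and without ICC-MY replicate 2 or 3. Atp5g2 and Atp5g3 differed between the classes by -0.15 ± 0.39 and -0.04 ± 0.51. Atp5e, the epsilon subunit of the catalytic head, was 1.02 ± 0.37 below tissue in ICC-DMP (8.85, 9.22 and 8.67 against 9.81 and 10.05), with no overlap and an adjusted p of 0.146; it passed with the replicate block (0.0479). Its probe set is of a kind that can match transcripts of other genes. Atp5c1 and Atp5g3, the brightest probe sets of the complex, differed by at most 0.30 and did not pass.

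Of the 12 assembly factors, which help build complexes I and II and do not stay in them, 2 passed. In ICC-MY against tissue 1 rose and 1 fell, where 4.05% and 9.78% of all genes did. Lower in ICC-DMP than in ICC-MY was 1, where 3.3% of all genes were. Ndufaf4, a complex I assembly factor, read 8.51, 8.71 and 8.51 in ICC-DMP, 9.61, 9.999 and 9.90 in ICC-MY and 8.61 and 8.80 in tissue. The 3 ICC-MY arrays, replicate 1 included, were above all others, and ICC-DMP overlapped tissue. It rose 2.19-fold in ICC-MY against tissue (log2 1.13 ± 0.17, adjusted p = 0.00274) and was lower in ICC-DMP than in ICC-MY by 1.26 ± 0.15 (adjusted p = 0.00119), in all 19 alternatives. Its second probe set was lower in ICC-DMP than in ICC-MY by 1.44 ± 0.33 (adjusted p = 0.0357 over all probe sets) and did not pass against tissue (1.03 ± 0.37, adjusted p = 0.128). Sdhaf3, which helps to assemble the iron-sulfur subunit Sdhb, read 6.56, 6.36 and 6.16 in ICC-DMP, 6.37, 6.09 and 6.36 in ICC-MY and 7.09 and 6.80 in tissue. It fell by 0.67 ± 0.18 in ICC-MY against tissue (adjusted p = 0.0452), a call that held in 4 of 19 alternatives; in ICC-DMP it was 0.58 ± 0.18 below tissue (adjusted p = 0.0881). Sdhaf4, a chaperone of Sdha, was 0.73 ± 0.21 lower in ICC-DMP than in ICC-MY (adjusted p = 0.0799; 0.0194 with the replicate block). The other 9 (Ndufaf1, Ndufaf2, Ndufaf3, Ndufaf5 to Ndufaf8, Sdhaf1 and Sdhaf2) had differences between -0.82 and 0.26 over the 3 comparisons and did not pass. The Ndufaf4 window is shown because this gene differed most among the assembly factors and, unlike those of Cox7a1 and Cox8b, holds the NRF1-type motif; it lies at chr4:24897833-24898082 on the plus strand, has 23 CpG pairs, and the capitals mark the match to the NRF1-type motif with its 2 free bases, at -113 to -104 from the start, which also holds GCATGCGC.
Ndufaf4: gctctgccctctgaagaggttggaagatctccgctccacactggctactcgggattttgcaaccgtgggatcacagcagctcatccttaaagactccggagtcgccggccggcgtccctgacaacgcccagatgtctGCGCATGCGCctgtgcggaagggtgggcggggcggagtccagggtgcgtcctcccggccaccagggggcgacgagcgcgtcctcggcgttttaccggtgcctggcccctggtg

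**Figure D3:**
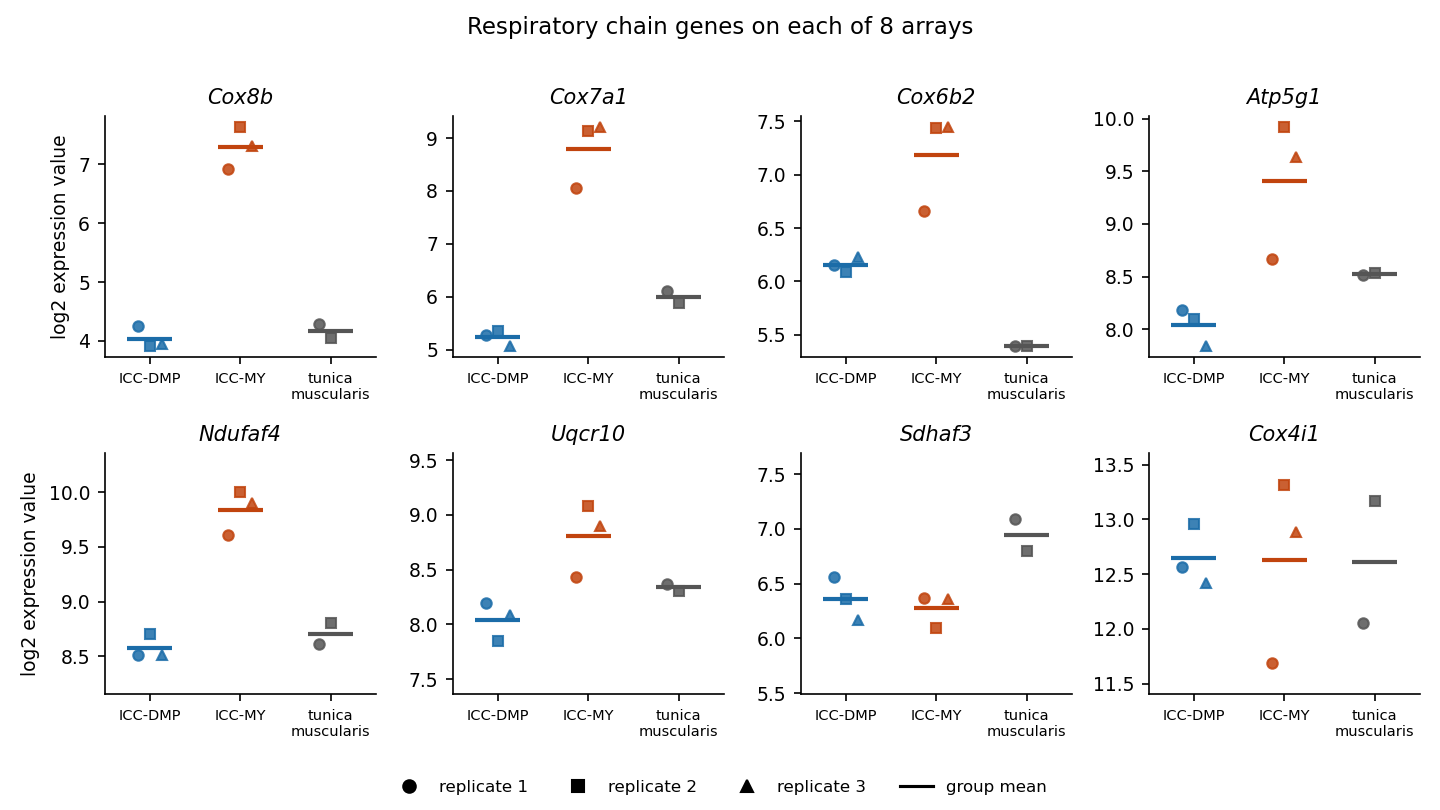
Log2 expression value (y axis, each panel with its own range) of the 7 genes that passed and of Cox4i1, on each array by group; symbols give the replicate number and lines the group means. The ICC-MY arrays lie above the other 5 for all but Sdhaf3 and Cox4i1, and replicate 1 is the lowest of the 3 ICC-MY arrays for every gene shown but Sdhaf3.

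The replicate block is given with single genes because same-numbered arrays deviated together. With it, 8 of the 96 rose in ICC-MY against tissue (Cox7c, Ndufs1, Sdha and Sdhd in addition to the 4), where 5.93% of all genes did. Between the classes 10 were lower in ICC-DMP (Ndufs1, Sdhaf4, Sdhd and Uqcrc1 in addition to the 6), where 5.61% of all genes were. In ICC-DMP against tissue 2 fell (Atp5e and Ndufa4l2), where 10.2% of all genes did. The group means of Cox7c (5.25 to 5.83) and Ndufa4l2 (4.07 to 4.88) were below 6, the limit used here for dim genes.

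The counts also moved with the narrow range of ICC-MY replicate 1 and tunica muscularis replicate 1. On the deposited scale the median of the 96 genes was 9.76 on ICC-MY replicate 1 against 11.18 and 10.73 on the other two ICC-MY arrays, and 9.92 against 10.72 on the 2 tissue arrays; in ICC-DMP it was 9.95, 10.13 and 9.78. Other bright genes moved with them: their median was 10.07 on ICC-MY replicate 1 and 10.23 on tunica muscularis replicate 1, against 10.86 to 11.25 on the other 6. After quantile normalization, which gives every array the same distribution, the median of the 96 was 9.70 to 9.93 in ICC-DMP, 10.47 to 10.76 in ICC-MY and 10.35 and 10.44 in tissue, and the 3 groups did not overlap. The other bright genes then read 10.79 to 10.90 on every array. Quantile normalization largely fixes this in advance, because these 735 genes are most of the genes with a mean of 10 or more. They are thus no independent control on that scale.

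**Figure D4:**
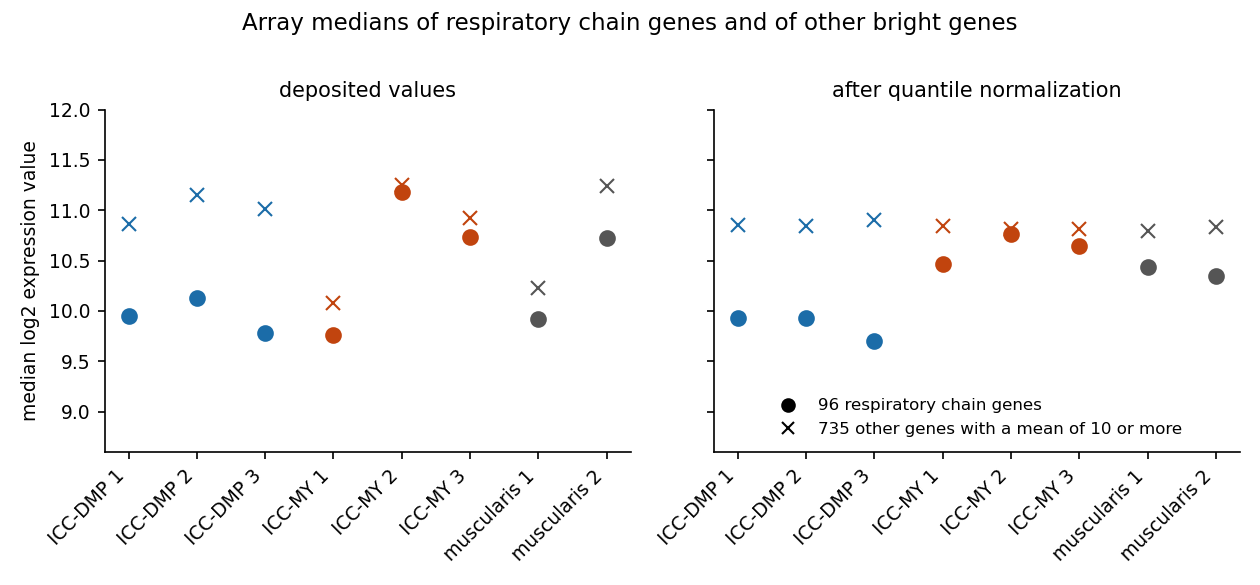
Median log2 expression value (y axis) of the 96 respiratory chain genes (circles) and of 735 other genes with a mean of 10 or more (crosses) on each of the 8 arrays, as deposited and after quantile normalization; colours give the group. As deposited, both medians drop on ICC-MY replicate 1 and tunica muscularis replicate 1. After quantile normalization the crosses are level, at 10.79 to 10.90, which the normalization largely fixes in advance. The 3 ICC-DMP circles, at 9.70 to 9.93, then lie below the other 5.

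On that scale many more of the genes passed, in all complexes. In ICC-MY against tissue 25 rose, where 7.88% of all genes did, and 1 fell (Ndufa2), where 13.6% did: 7 of complex I, 2 of complex II, 4 of complex III, Cycs, 5 of complex IV, 4 of complex V and 2 assembly factors rose. Between the classes 46 were lower in ICC-DMP, where 7.01% of all genes were, and 0 were higher: 18 of complex I, 3 of complex II, 7 of complex III, Cycs, 6 of complex IV, 9 of complex V and 2 assembly factors. In ICC-DMP against tissue 1 rose (Cox6b2) and 13 fell, where 5.71% and 11.5% of all genes did; those that fell were Ndufa5, Ndufab1, Ndufb2, Ndufb8, Sdhb, Uqcrh, Cox6c, Cox7a1, Ndufa4l2, Atp5e, Atp5j2, Atp5k and Atp5md. The medians were -0.27, 0.24 and -0.55 in ICC-DMP against tissue, ICC-MY against tissue and between the classes. In the last, 90 of 96 were below 0. The other bright genes had a median of 0.05 there, but the normalization itself keeps their level nearly even.

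Single genes of the core machinery passed there with differences near 1. Sdha rose by 1.39 ± 0.17 in ICC-MY against tissue (adjusted p = 0.000333) and was lower in ICC-DMP than in ICC-MY by 1.05 ± 0.15 (adjusted p = 0.00138). Ndufs1 rose by 1.22 ± 0.21 (adjusted p = 0.00274), and Ndufv1, the flavin subunit where NADH is oxidised, by 0.93 ± 0.15 (adjusted p = 0.0021). The Rieske protein gene Uqcrfs1 rose by 0.85 ± 0.18, Cyc1 by 0.82 ± 0.13, Cycs by 0.65 ± 0.15, and the catalytic subunit gene Atp5b by 0.85 ± 0.20. Cox4i1 did not pass on this scale either (0.25 ± 0.15 in ICC-MY against tissue, adjusted p = 0.313). Without ICC-MY replicate 1, on the deposited scale, 19 genes rose in ICC-MY against tissue and 20 were lower in ICC-DMP than in ICC-MY, where 6.9% and 5.32% of all genes did. Without both narrow arrays 43 were lower in ICC-DMP than in ICC-MY, where 7.71% of all genes were. That setting leaves 1 tissue array, tunica muscularis replicate 2. Differences from tissue then rest on it alone, with a median over the 96 of 0.14 in ICC-MY.

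A second probe set passed in a comparison where the chosen one did not for 7 genes (Atp5c1, Cox5b, Cycs, Ndufa10, Ndufab1, Ndufb8 and Ndufs4), with p-values adjusted over all 34945 probe sets that name 1 gene. Cycs and Ndufab1 had such a probe set in both comparisons with ICC-MY: for Cycs, 1.64 ± 0.18 in ICC-MY against tissue (adjusted p = 0.000603) and -1.26 ± 0.16 between the classes (adjusted p = 0.00197); for Ndufab1, 1.06 ± 0.16 (adjusted p = 0.00375) and -1.53 ± 0.15 (adjusted p = 0.000455). One for Atp5c1 was 2.24 ± 0.31 above tissue in ICC-MY (adjusted p = 0.00198). Those of Cox5b, Ndufb8 and Ndufs4 were higher in both ICC classes than in tissue, by 0.78 to 1.17 in ICC-DMP and 0.89 to 0.98 in ICC-MY. Most of these second probe sets were dim. Group means were 3.57 to 5.21 for Cycs, 4.35 to 5.88 for Ndufab1, 3.94 to 5.11 for Ndufs4 and 5.25 to 6.23 for Ndufb8. They were not shown to be above background. Brighter second sets of Cycs did not pass in ICC-MY against tissue (limma adjusted p = 0.149 and 0.612). No brighter set of Cox5b, Ndufb8 or Ndufs4 passed against tissue in either class. In ICC-DMP they differed from tissue by -0.69, -0.61 and -0.22 for Ndufs4, -0.41 for Ndufb8 and -0.07 to 0.06 for Cox5b. In ICC-MY they differed from tissue by -0.09 to 0.39.

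The regulators of these genes were read from a list of 18 measured genes for transcription and copy number of mitochondrial genes. Of these, 3 rose and 1 fell in ICC-MY against tissue, where 4.05% and 9.78% of all genes did. In ICC-DMP against tissue 1 rose and 1 fell, where 3.72% and 7.32% of all genes did. Ppargc1a, the coactivator known as PGC-1 alpha and a driver of mitochondrial biogenesis, read 8.37, 8.64 and 8.72 in ICC-DMP, 9.45, 10.43 and 10.53 in ICC-MY and 6.37 and 7.79 in tissue. The 3 groups did not overlap. It rose 8.35-fold in ICC-MY against tissue (log2 3.06 ± 0.45, adjusted p = 0.0023, in all 19 alternatives) and was lower in ICC-DMP than in ICC-MY by 1.56 ± 0.40 (adjusted p = 0.0494, in 13 of 19). Esrra, a nuclear receptor that works with it, rose by 0.997 ± 0.22 in ICC-MY against tissue (adjusted p = 0.0199) and was lower in ICC-DMP than in ICC-MY by 0.85 ± 0.20 (adjusted p = 0.034). Nrf1, the factor of the motif above, rose in both classes, by 1.35 ± 0.16 in ICC-DMP (adjusted p = 0.000954) and 1.13 ± 0.16 in ICC-MY (adjusted p = 0.00196). Ppargc1b, the related coactivator, fell by 0.96 ± 0.22 in ICC-MY (adjusted p = 0.0222), and Tfb1m, a mitochondrial rRNA methyltransferase, by 0.61 ± 0.16 in ICC-DMP (adjusted p = 0.0436). Gabpa and Tfam, which act on nuclear chain genes and on mitochondrial DNA, did not pass in any comparison.

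**Figure D5:**
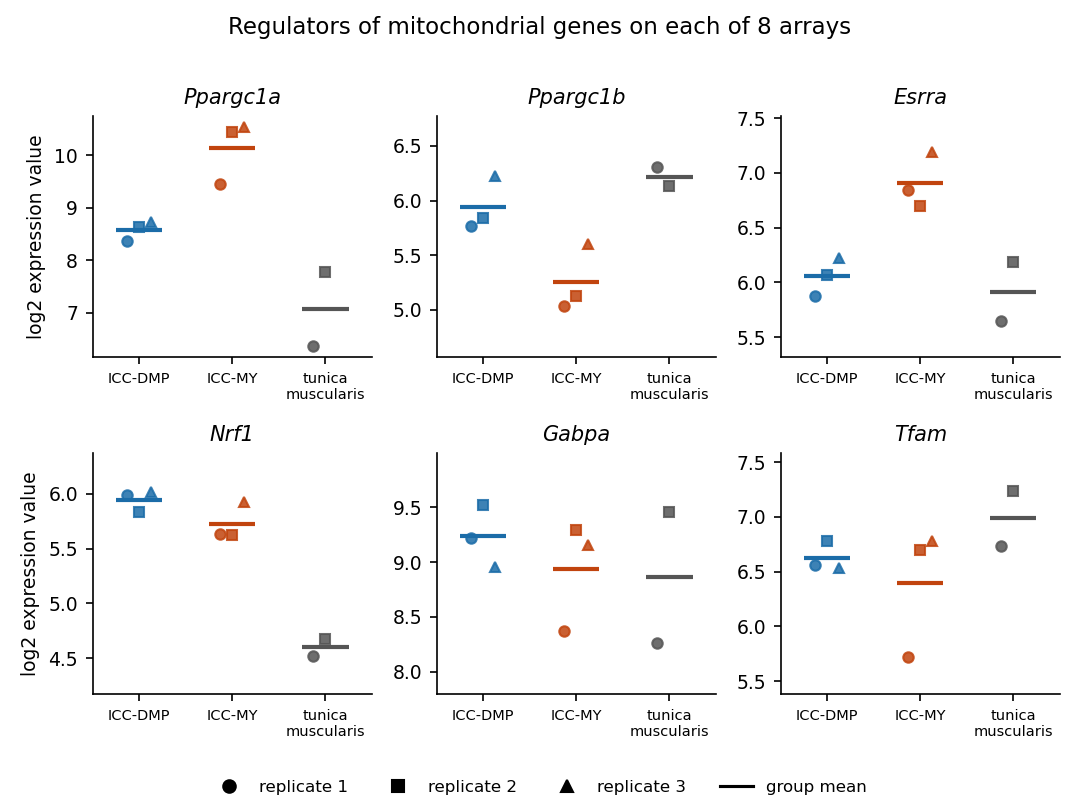
Log2 expression value (y axis, each panel with its own range) of 6 regulators of mitochondrial genes on each array by group; symbols give the replicate number and lines the group means. Ppargc1a and Esrra are highest on the 3 ICC-MY arrays, Nrf1 is higher on all 6 ICC arrays than on the 2 tissue arrays, and Ppargc1b is lowest on the ICC-MY arrays.

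Other steps around the chain were read from further lists. The first held 36 measured assembly factors and copper or haem delivery genes outside the rule. Of these, 3 rose and 2 fell in ICC-MY against tissue, where 4.05% and 9.78% of all genes did. In ICC-DMP against tissue 1 rose and 1 fell, where 3.72% and 7.32% of all genes did. Between the classes 3 were lower in ICC-DMP than in ICC-MY, where 3.3% of all genes were. Atpaf1, which assembles the catalytic head of complex V, rose by 1.56 ± 0.23 in ICC-MY against tissue (adjusted p = 0.0028) and was lower in ICC-DMP than in ICC-MY by 1.26 ± 0.21 (adjusted p = 0.00652). Foxred1, a complex I assembly factor, rose by 0.77 ± 0.19 in ICC-MY (adjusted p = 0.0289), and Ttc19, which acts on complex III, rose in both classes, by 2.55 ± 0.28 in ICC-DMP and 2.18 ± 0.28 in ICC-MY (adjusted p = 0.000621 and 0.00113). Pet100, needed for complex IV, fell in both, by 1.16 ± 0.15 and 1.35 ± 0.15, and Slirp, which stabilises mitochondrial mRNA, fell in ICC-MY by 1.40 ± 0.28 (adjusted p = 0.0125).

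In the tricarboxylic acid cycle and pyruvate entry list, 1 of 19 measured genes rose in ICC-MY against tissue, where 4.05% of all genes did. Between the classes 2 were lower in ICC-DMP than in ICC-MY, where 3.3% of all genes were. The medians of the list in these comparisons were 0.87 and -0.55. Ogdh, a subunit of the oxoglutarate dehydrogenase complex, rose by 1.50 ± 0.25 (adjusted p = 0.00434), and the mitochondrial isocitrate dehydrogenase gene Idh2 was lower in ICC-DMP than in ICC-MY (log2 -1.85 ± 0.44, adjusted p = 0.0362). After quantile normalization 14 of the 19 rose in ICC-MY against tissue, where 7.88% of all genes did. On that scale 14 were lower in ICC-DMP than in ICC-MY, where 7.01% of all genes were. Of 14 genes for coenzyme Q synthesis and other donors to the chain, 1 rose and 1 fell in each class against tissue. Of all genes 3.72% rose and 7.32% fell in ICC-DMP, and 4.05% rose and 9.78% fell in ICC-MY. Coq9 rose in ICC-MY by 1.46 ± 0.27 (limma adjusted p = 0.00728), and Coq3 fell in both classes. The glycerol phosphate dehydrogenase gene Gpd2, another entry point for electrons, rose in ICC-DMP by 1.96 ± 0.27 (limma adjusted p = 0.00209). Gpd2 was also higher in ICC-DMP than in ICC-MY, by 1.18 ± 0.24 (adjusted p = 0.0185). Of 12 genes for ATP synthase regulation and ATP export, 2 fell in ICC-DMP and 1 in ICC-MY against tissue, where 7.32% and 9.78% of all genes did. Between the classes 1 was higher and 1 lower in ICC-DMP, where 5.36% and 3.3% of all genes were. The mitochondrial creatine kinase gene Ckmt1 fell in ICC-DMP against tissue by 2.79 ± 0.26 (limma adjusted p = 0.000258). It was lower in ICC-DMP than in ICC-MY by 2.35 ± 0.23 (adjusted p = 0.000405). Of 10 uncoupling and oxidant defence genes, 1 rose in ICC-MY against tissue, where 4.05% of all genes did. It was the manganese superoxide dismutase gene Sod2, with a rise of 1.26 ± 0.35 (limma adjusted p = 0.0473). Lower in ICC-DMP than in ICC-MY was 1, where 3.3% of all genes were. It was Txn2, the mitochondrial thioredoxin, lower by 1.07 ± 0.24 (limma adjusted p = 0.0291).

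Because Cox7a1 and Cox8b are known from striated muscle and brown fat, markers of such cells were read beside them; the heart, fat and pericyte lists were chosen after values were seen. The mean level of 7 striated muscle markers was 3.32 to 3.54 on the ICC-MY arrays, 3.87 to 3.99 on the ICC-DMP arrays and 4.67 to 4.76 on the tissue arrays, and 0 of the 7 rose and 3 fell in ICC-MY against tissue. Ckm, the muscle creatine kinase, read 4.53, 4.22 and 4.15 in ICC-MY and 7.92 and 7.97 in tissue, a fall of 3.65 ± 0.17 (adjusted p = 7.47e-06). Over 6 heart muscle markers the mean level was 3.86 to 4.25 in ICC-MY, 4.90 to 5.05 in ICC-DMP and 5.74 to 5.79 in tissue, and 0 rose and 2 fell in ICC-MY. Over 5 measured fat cell markers it was 3.65 to 3.99 in ICC-MY, 4.65 to 4.80 in ICC-DMP and 4.25 to 4.29 in tissue, with 0 that rose and 1 that fell in ICC-MY. Ucp1, the uncoupling protein of brown fat, read 3.38 to 3.67 and Adipoq 2.47 to 2.90 over the 8 arrays, and neither differed between groups (adjusted p of 0.52 to 0.923 over the 3 comparisons). Of 6 pericyte markers, 2 rose and 0 fell in ICC-MY against tissue (mean level 7.77 to 8.45 against 7.10 to 7.91). In ICC-DMP 2 of the 6 were lower than in ICC-MY, where 3.3% of all genes were. Over all genes 4.05% rose and 9.78% fell in ICC-MY against tissue. The part of the smooth muscle, endothelial and pericyte markers in these results was not tested.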

How the data were processed

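The deposited series matrix holds log2 expression values per probe set, which the authors normalized before deposit; the submitters' processing notes name RMA and limma without their roles or versions. Of 45101 probe sets, the platform annotation gave 34945 a single gene, 932 more than 1 and 9160 none; the 64 controls were left out. Each of 18193 genes was read from whichever of its probe sets had the highest 8-array mean. Groups came from the sample titles. The 3 groups were fitted together with limma 3.58.1 in R 4.3.3 (lmFit, eBayes; 5 residual and 3.17 prior degrees of freedom), with Benjamini-Hochberg adjustment over all genes; errors after ± are standard errors. Depth has no counterpart on arrays; their number limits precision. The fit was tested on simulated data.

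Genes named were up to 6 largest called per comparison and direction, the 2 brightest per complex, all genes of complex II, Cyc1, Cycs, isoform sets, assembly factors, genes with a second probe set that passed where the chosen one did not, and the 3 largest called of each pathway list; those named beyond that, such as near misses and calls of the alternatives, were chosen after their values were seen. Members and lists were chosen with earlier results of these data known. Same-numbered arrays had correlated deviations from their group means in all 7 pairs (0.155 to 0.608), though the titles give no shared animal or day, so values with the replicate number as a block are given where they change a call. Alternatives were other normalizations, probe set rules, filters, variance models and left-out arrays. They are not all separate checks. Between the ICC classes, fitting only the 2 groups and leaving out either tissue array gave the same calls. For a gene with 1 probe set, averaging probe sets leaves its own values unchanged.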

Additional observations from a re-analysis of the deposited data

Results flagged for a closer look

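For 5 genes of the set, ICC-DMP and ICC-MY differed in the limma fit and their differences from the shared tissue arrays had opposite signs. None of the 5 passed in ICC-DMP against tissue, and Atp5g1 and Uqcr10 passed against tissue in neither class. For Cox8b (-0.13 ± 0.23) and Ndufaf4 (-0.13 ± 0.17) the ICC-DMP difference from tissue was within its standard error and the arrays overlapped. The opposite signs alone therefore do not show opposite changes from tissue. The log2 difference of ICC-DMP minus ICC-MY was -3.56 for Cox7a1, -3.24 for Cox8b, -1.37 for Atp5g1, -1.26 for Ndufaf4 and -0.76 for Uqcr10. Cox6b2 also passed in that comparison (-1.02), but it was above tissue in both classes.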

How the results depend on the processing

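None of the 7 genes that passed turned its direction in a comparison where it passed. Ndufb8 in ICC-DMP against tissue was called lower after quantile normalization and without both narrow arrays. With every probe set tested it was called higher by another, much dimmer probe set (0.89, limma adjusted p = 0.0114). The medians that changed sign are given with the medians above. Counts of the 96 genes that passed moved most with the scale of the arrays. Settings without the narrow arrays, or with 1 tissue array left out, compare with 1 tissue array only, so their counts against tissue carry little weight. ICC-DMP above tissue (0 genes) became 1 after quantile normalization, with only the 2 groups fitted, without both narrow-range arrays, and with quantile normalization plus the replicate block or without the narrow arrays, 3 with every probe set, and 0 to 1 with 1 array left out. ICC-DMP below tissue (0) became 13 after quantile normalization, 1 with a variance trend, 2 with the replicate block, 2 with only the 2 groups, 9 without both narrow arrays, 22 with quantile normalization and block, 4 with quantile normalization without the narrow arrays, and 0 to 2 with 1 array left out. ICC-MY above tissue (4) became, under quantile normalization alone, with the block and without the narrow arrays, 25, 29 and 19; it became 8 with array weights, 8 with the block, 12 without the narrow arrays, 10 with every probe set, and 4 to 19 with 1 array left out, 19 being without ICC-MY replicate 1. ICC-MY below tissue (1, Sdhaf3) became 0 with probe sets averaged, dim genes removed, array weights, a variance trend, only the 2 groups, no narrow arrays, or quantile normalization without them, 2 with quantile normalization and block, and 0 to 1 with 1 array left out. ICC-DMP below ICC-MY (6) became 46, 66 and 46 under those 3 quantile settings, 21 with array weights, 10 with the block, 43 without the narrow arrays, 10 with every probe set, and 3 to 20 with 1 array left out; the 3 were Cox7a1, Cox8b and Ndufaf4. The share of all genes that passed moved too: for ICC-DMP below ICC-MY it was 3.3% as reported, 7.01%, 10% and 8.11% under the 3 quantile settings, 7.08% with array weights, 5.61% with the block, 7.71% without the narrow arrays, 2.75% of probe sets with every probe set, and 1.88% to 5.32% with 1 array left out. Over all alternatives it was 2.17% to 7.21% for ICC-DMP above tissue, 4.6% to 14.5% for ICC-DMP below tissue, 2.12% to 9.79% for ICC-MY above tissue and 6.23% to 16.3% for ICC-MY below tissue. Cox7a1, Cox8b and Ndufaf4 passed in all 19 alternatives in both comparisons with ICC-MY. The block changed no other call of the 96 genes than those given. The combined quantile alternatives were chosen after seeing the data; the cause of these shifts was not tested.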
